A study of Mus musculus with 12 samples.

Results

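The mouse genes named Zfp and a number, which encode zinc finger proteins, were examined in sorted intestinal stem cells (ISCs) of young and old mice. Members were the protein-coding genes of that name with at least 10 raw counts in at least 3 of the 12 libraries. This rule used the level of the counts and not their difference between groups, and it selected 214 of the 394 protein-coding Zfp genes in a table of 54232 genes. The study asked how ISCs of the small intestine differ between 2 and 22 months of age and compared both isolations. SM6 ISCs came from wild-type C57/Bl6 mice and were sorted on surface markers as CD31-, CD45-, CD24 medium, CD166+, CD44 high, GRP78 low, EPHB2 high and EPCAM+. Lgr5-GFP ISCs came from Lgr5-EGFP-IRES-CreERT mice (CreERT2 in the study's methods), which carry a reporter in the Lgr5 locus that is known to be expressed in only a part of the crypts. The sample labels give the SM6 sort for the reporter mice too, whereas the study describes a sort on GFP, so that strain and isolation cannot be told apart here. No other allele or agent is given for any group. Each isolation had 3 libraries at 2 months (young) and 3 at 22 months (old), each from an individual mouse.

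Most Zfp genes encode proteins with C2H2 zinc fingers, small folds held by a zinc ion that are strung in tandem and read DNA. In mammals many of them also carry a KRAB domain, which recruits the corepressor Trim28 and, through it, the histone methyltransferase Setdb1 and HP1 proteins. KRAB zinc finger proteins are known above all for silencing transposable elements, and their genes lie in clusters that arose by local duplication. A small group under the same gene name, Zfp36 and its relatives, has CCCH fingers instead and binds AU-rich elements in mRNA to promote mRNA decay. ISCs are the dividing cells at the base of the crypt that renew the epithelium, and they lie between Paneth cells, which make defensins.

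The libraries were shallow for genes of this kind. Total counts ranged from 970472 to 3815425 per library, and the median member had between 14 and 46 counts per library. Between 212 and 214 members had at least 1 count in each library, and 102 reached 10 counts in every library. The count threshold was reached by a library of all 4 groups for 168 members, of 3 groups for 33 and of 2 groups for 13, and no member entered through 1 group alone. The ISC markers were present throughout, with Lgr5 at 217 to 356 CPM (counts per 1000000 scaled counts of a library) and Olfm4 at 5397 to 11904 CPM. The summed level of 12 ISC markers was not even between groups. It was 13292 to 17051 CPM in SM6 young and 7711 to 8834 CPM in SM6 old libraries. Olfm4 weighs heavily in this sum, whereas Ascl2, also on the list, lay between 89.2 and 132 CPM over all 12 libraries. Of the 12 immune markers, 10 had a count in SM6 young and 7 in SM6 old libraries, and the list summed to 7.21 to 43.7 CPM over all libraries, with Cd79a at 0 throughout. Its sums overlapped between SM6 young and old libraries. In Lgr5-GFP libraries they were 24.3 to 43.7 CPM at 2 months and 7.21 to 16.7 CPM at 22 months, without overlap. The 10 stromal and endothelial markers summed to at most 10.3 CPM, with Col3a1, Pdgfra and Dcn at 0 throughout. Defensin genes took 1.26% to 23.2% of the counts, with the highest shares in SM6 old 3 and Lgr5-GFP young 1. Paneth cell markers, 10 genes in all, summed to 11645 to 67480 CPM in SM6 young and 43986 to 219076 CPM in SM6 old libraries, which overlap. In Lgr5-GFP libraries they summed to 45230 to 203967 CPM at 2 months and 19819 to 32987 CPM at 22 months, without overlap. Goblet cell markers, 8 genes in all, summed to 5908 to 9129 CPM in SM6 young and 14422 to 18208 CPM in SM6 old libraries. The sums of these lists are CPM over the unscaled library totals. In bulk RNA, fewer cells of a type and less RNA per cell cannot be told apart.

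At the count threshold itself, Zfp607a, Zfp825 and Zfp72 entered with 10 counts in their third-highest library, and Zfp119a, Zfp119b and Zfp142 stayed out with 9. Zfp607a had 5, 6 and 7 counts in SM6 young, 10, 2 and 0 in SM6 old, 12, 4 and 9 in young Lgr5-GFP and 16, 1 and 1 in Lgr5-GFP old libraries. Zfp142 had 6, 10 and 10 counts in SM6 young, 4, 1 and 9 in SM6 old, 5, 4 and 3 in young Lgr5-GFP and 4, 2 and 4 in Lgr5-GFP old libraries. These counts overlap, so the boundary separates genes of about the same level. No count at all was listed for 45 protein-coding Zfp genes.

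By the motifs in their translated coding sequence, 108 members had C2H2 fingers and a KRAB domain, 99 had C2H2 fingers without KRAB, and 7 had neither motif (Zfp36, Zfp36l1, Zfp36l2, Zfp330, Zfp503, Zfp703 and Zfp839, given in full because they are few). KRAB here means a match to a short pattern with at most 2 of 8 fixed residues differing. A domain further from that pattern was counted as without KRAB. KRAB made up 50.5% of the members and 67.2% of the 180 protein-coding Zfp genes below the threshold. KRAB members had a median of 12 fingers, with 2 to 30, and those without KRAB a median of 7, with 1 to 34. Chromosome 7 held 50 members, chromosome 17 held 29 and chromosome 13 held 18. When Zfp genes less than 250 kb apart were joined into clusters, 65 of the 108 KRAB members lay in a cluster of 5 or more Zfp genes, against 21 of the 99 C2H2 members without KRAB. The cluster with the most members, at chr17:21383748-22456689 of GRCm38, held 14 members among 18 Zfp genes, and all 14 were KRAB genes.

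Zfp transcripts were present at low levels. Mean levels over the 12 libraries ranged from 3.00 to 451 CPM with a median of 13.6 CPM, and 78 members were under 10 CPM whereas 7 were over 100 CPM. The median was 10.3 CPM for KRAB members, 20.3 CPM for C2H2 members without KRAB and 25.4 CPM for the 7 others. Per kilobase of exon the medians were 2.53, 3.16 and 7.31 CPM per kb in the same order. Since the count rule selected on level, these medians describe the genes that passed it. The 5 members with the highest mean CPM took 18.8% of the members' counts, and none had a KRAB match. Zfp706, a protein of 76 residues with 1 finger known from the exit of embryonic stem cells from self-renewal, stood first with 400 to 500 CPM over the 12 libraries. Per kilobase of exon it was again first, at 90.5 CPM per kb, against 20.5 for Zfp207, 13.1 for Zfp292, 12.5 for Zfp91 and 15.8 for Zfp664. Reads came from the 3′ end, so that CPM per kb understates long genes. Of the 3′ windows of Zfp706, 34.7% are shared in sequence with other genes, and its count is uncertain to that extent.

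**Figure D1:**
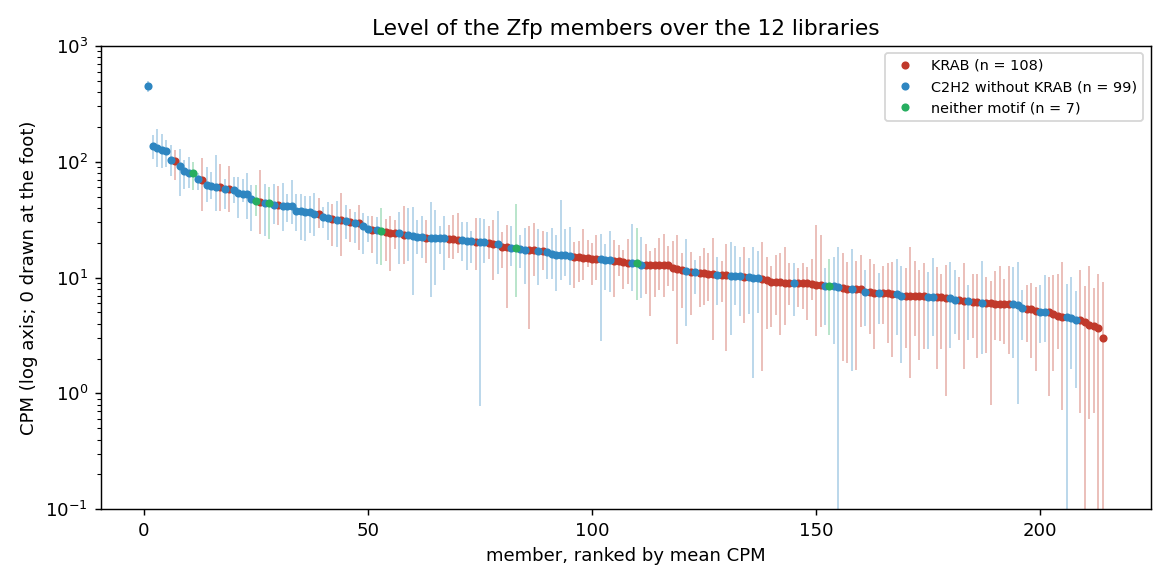
Level of the 214 Zfp members, ranked by mean CPM (x axis: rank; y axis: CPM, log scale, with libraries at 0 drawn at the foot). Points are means over the 12 libraries, lines run from the lowest to the highest library and colours give the protein class. The points fall from 451 CPM for Zfp706 to 3.00 CPM, and KRAB members run from 102 to 3.00 CPM.

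None of these 5 abundant members passed the test for age. Zfp706 measured 400, 406 and 449 CPM in SM6 young, 466, 453 and 479 in SM6 old, 455, 500 and 461 in young Lgr5-GFP and 465, 450 and 423 in Lgr5-GFP old libraries. Its age difference averaged over both isolations was 0.04 ± 0.10 (SE) on the log2 scale, with an edgeR quasi-likelihood adjusted p of 0.938. Zfp207 (BuGZ), a protein of the mitotic spindle and kinetochore, measured 140, 171 and 165 CPM in SM6 young and 129, 116 and 138 in SM6 old libraries. In Lgr5-GFP libraries it measured 154, 132 and 146 CPM at 2 months and 128, 106 and 116 at 22 months. The young and old libraries of Zfp207 did not overlap in either isolation, but the average log2 difference of -0.31 ± 0.11 had an adjusted p of 0.199. Zfp292, Zfp91 (a ubiquitin ligase) and Zfp664 had average log2 differences of -0.35 ± 0.14, -0.18 ± 0.14 and -0.25 ± 0.13, with adjusted p of 0.246, 0.66 and 0.451.

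In SM6 ISCs, 6 members fell with age and none rose. They were Zfp39, Zfp217, Zfp317, Zfp367, Zfp263 and Zfp503, and their log2 fold changes ran from -2.09 to -0.79. Calls were made where edgeR's quasi-likelihood test gave an adjusted p below 0.05 over 13368 genes. The 6 members are 2.80% of the 214, and of all tested genes 2.42% were called in this comparison and 1.77% were called lower, so the share of members called was near that of the whole table. All tested genes, here and below, include genes under the members' count rule. Among the 10334 tested genes that met the rule, 84 were called higher and 236 lower. The called members spread over the classes. Zfp39 and Zfp317 were of the KRAB class, Zfp217, Zfp263 and Zfp367 had C2H2 fingers without a KRAB match, and Zfp503 had neither motif.

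Zfp39, a KRAB protein with 12 fingers at chr11:58888153-58904225, had the largest decrease. It measured 11.5, 16.6 and 20.2 CPM in SM6 young and 1.56, 5.43 and 3.99 CPM in SM6 old libraries, or 19, 30 and 28 counts against 2, 8 and 5. Every old SM6 library lay below every young one, whereas the Lgr5-GFP libraries overlapped, at 9.14, 9.45 and 11.2 CPM at 2 months and 14.0, 10.6 and 3.86 CPM at 22 months. The log2 fold change was -2.09 ± 0.49 (adjusted p = 0.0187) in SM6 and -0.02 ± 0.44 (adjusted p = 0.999) in Lgr5-GFP ISCs. The difference between the isolations, 2.06 ± 0.66, did not pass the test (adjusted p = 0.25). Gm12256 overlaps Zfp39 on the other strand, and with the strand setting of the counting not given their reads cannot be told apart.

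Zfp217, at chr2:170108643-170148103, encodes an 8-finger protein known as a subunit of corepressor complexes and, in human cancers, as an amplified oncogene. It measured 26.1, 39.9 and 40.5 CPM in SM6 young and 7.01, 21.0 and 13.6 CPM in SM6 old libraries, and 25.8, 22.7 and 38.5 CPM in young Lgr5-GFP and 14.0, 11.4 and 16.4 CPM in Lgr5-GFP old libraries. In both isolations all 3 old libraries were below all 3 young ones. The decrease was -1.33 ± 0.33 in SM6 (adjusted p = 0.0290), and the Lgr5-GFP value of -1.08 ± 0.34 did not pass (adjusted p = 0.207).

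Zfp263, a SCAN-domain protein with 9 fingers at chr16:3744093-3750790, had the same order of libraries. Its levels were 81.9, 114 and 70.1 CPM in SM6 young, 51.4, 48.9 and 54.3 in SM6 old, 68.4, 63.3 and 55.5 in young Lgr5-GFP and 40.7, 47.2 and 37.6 in Lgr5-GFP old libraries. Young and old libraries did not overlap in either isolation. The log2 fold changes were -0.79 ± 0.20 (adjusted p = 0.0331) and -0.57 ± 0.21 (adjusted p = 0.300).

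Zfp317, a KRAB protein with 13 fingers at chr9:19622102-19649731, measured 53.4, 91.5 and 91.8 CPM in SM6 young and 36.6, 46.1 and 43.9 CPM in SM6 old libraries. In Lgr5-GFP libraries it measured 62.1, 56.7 and 62.9 CPM at 2 months and 50.7, 61.8 and 39.5 CPM at 22 months, and these overlapped. Its log2 fold change was -0.90 ± 0.22 in SM6 (adjusted p = 0.0290) and -0.26 ± 0.22 in Lgr5-GFP ISCs (adjusted p = 0.779). Zfp367, a protein of 340 residues with 2 fingers at chr13:64133018-64153202, measured 60.1, 76.5 and 80.2 CPM in SM6 young and 46.0, 35.3 and 34.4 CPM in SM6 old libraries. Its Lgr5-GFP libraries overlapped, at 63.0, 65.2 and 41.4 CPM at 2 months and 32, 48.8 and 46.3 CPM at 22 months. Zfp367 differed by -0.91 ± 0.23 in SM6 (adjusted p = 0.0319) and by -0.42 ± 0.23 in Lgr5-GFP ISCs (adjusted p = 0.592), and the antisense gene Gm47513 overlaps it.

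Zfp503 (Nolz1), at chr14:21983959-21989601, is a transcriptional repressor known from limb and forebrain development. Its SM6 young libraries were uneven, at 12.7, 43.2 and 21.7 CPM, against 13.2, 6.79 and 7.19 CPM in SM6 old libraries, so that the groups overlapped. The Lgr5-GFP libraries measured 25.5, 20.8 and 17.8 CPM at 2 months and 12.7, 20.3 and 13.5 CPM at 22 months. Its decrease of -1.53 ± 0.41 in SM6 had an adjusted p of 0.0451, and without SM6 young 2 it was -0.91 with an adjusted p of 0.433.

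The SM6 calls rested on few libraries. Without SM6 young 2 or without SM6 old 1 all 6 calls were lost, and without SM6 young 3, SM6 old 2 and SM6 old 3 the number of members called was 1, 2 and 2, with Zfp503 lost also without Lgr5-GFP young 2 or Lgr5-GFP old 1. All 6 stayed lower in old SM6 libraries without any one of the 12 libraries. With the defensin share of each library as a term, 3 of the 6 were called (Zfp39, Zfp263 and Zfp367), and without both defensin-rich libraries 1 was called (Zfp39). The log2 fold changes stayed near those above, at -1.17 for Zfp217, -0.85 for Zfp317 and -1.51 for Zfp503 with the defensin term. Without both libraries they were -1.29 for Zfp217, -0.82 for Zfp263, -0.91 for Zfp317, -0.82 for Zfp367 and -1.38 for Zfp503. The lower sum of the ISC markers and the higher sum of the goblet cell markers in SM6 old libraries, given above, lie between the same groups as these calls, and their part in them was not tested.

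**Figure D2:**
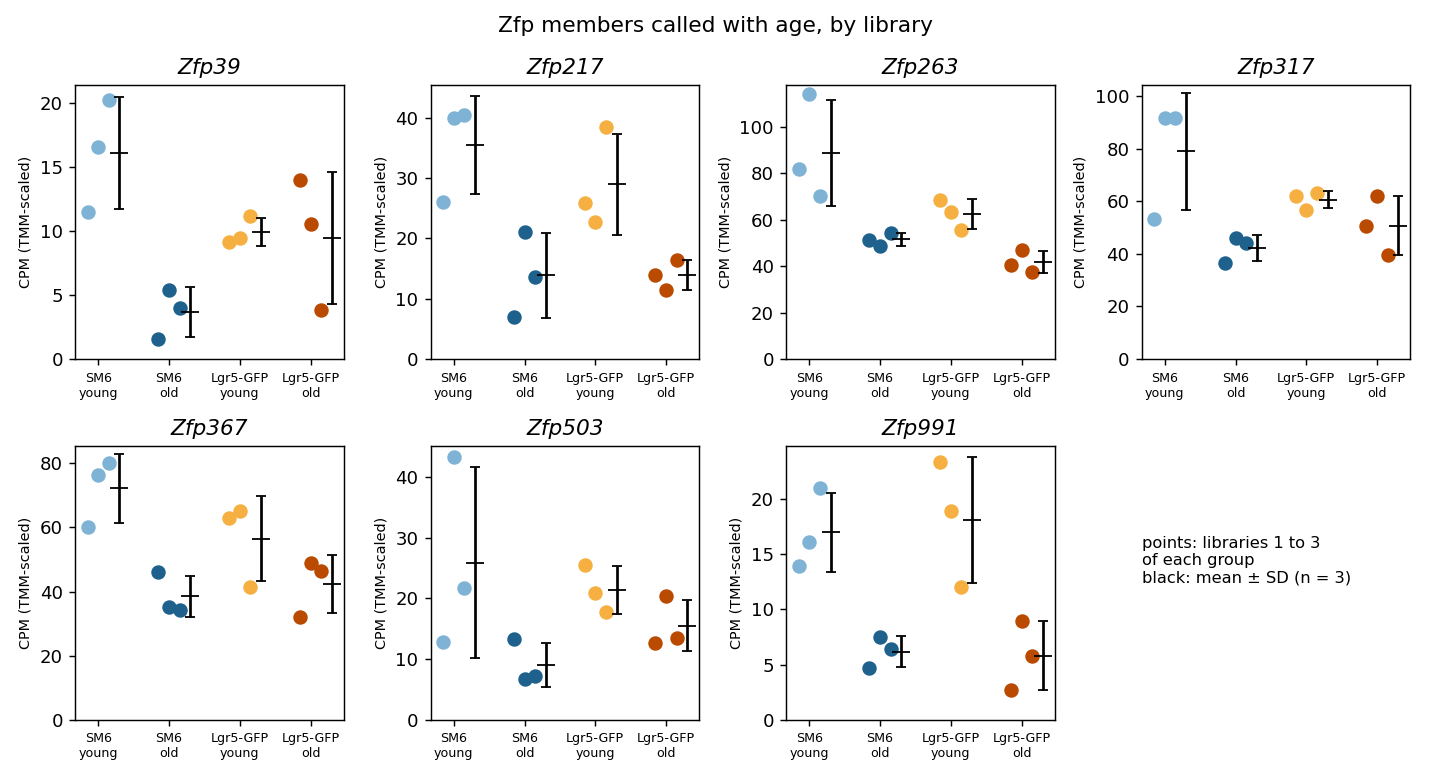
CPM of the 7 members called with age in SM6 or on average (y axes: TMM-scaled CPM, from 0; x axes: group). Points are the 3 libraries of each group and black marks the mean ± SD. The old SM6 libraries sit below the young ones for all but Zfp503, and Zfp217, Zfp263 and Zfp991 are below in both isolations.

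In Lgr5-GFP ISCs no member was called with age by edgeR's quasi-likelihood test, DESeq2 or limma voom, and of all tested genes 0.471% were. Zfp991 alone was called under edgeR's likelihood ratio test, with no filter on low counts, and without Lgr5-GFP young 3 or Lgr5-GFP old 2. At an unadjusted p under 0.05 there were 19 members, or 8.88% of them, against 9.79% of all tested genes. The quasi-likelihood test, DESeq2 and limma voom called no member for a difference of the age effect between the isolations, where by the first 0.658% of all tested genes were called. At an unadjusted p under 0.05 by the first test there were 13 members, or 6.07%, against 9.43% of all tested genes. Taken as Lgr5-GFP minus SM6, 12 of the 13 were positive and 1 negative, against 568 and 692 of all tested genes. At any p, 67.3% of members were positive against 50.3% of all tested genes.

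Averaged over both isolations, 5 members fell with age and none rose. These were Zfp991, Zfp217, Zfp263, Zfp367 and Zfp317, or 2.34% of the members, against 2.66% of all tested genes called and 2.06% called lower. The average log2 fold changes were -1.21 ± 0.24 for Zfp217 (adjusted p = 0.00379), -0.68 ± 0.14 for Zfp263 (0.00768), -0.66 ± 0.16 for Zfp367 (0.0243) and -0.58 ± 0.16 for Zfp317 (0.0481). Zfp217, Zfp263 and Zfp991 were called without any one of the 12 libraries and under all 10 other settings. With 1 library left out, Zfp317 was called in 2 of the 12 fits (without SM6 young 1 and without Lgr5-GFP old 2) and Zfp367 in 6, and each was called in 8 of the 10 other settings. Without SM6 young 2, for instance, the adjusted p was 0.163 for Zfp317 and 0.0698 for Zfp367.

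Zfp991 is a KRAB gene with 11 fingers at chr4:147132038-147180579, in a cluster of 10 Zfp genes. It measured 14.0, 16.1 and 21.0 CPM in SM6 young, 4.68, 7.47 and 6.39 in SM6 old, 23.3, 18.9 and 12 in young Lgr5-GFP and 2.67, 8.94 and 5.79 in Lgr5-GFP old libraries. All old libraries were below all young ones in both isolations, with an average log2 fold change of -1.55 ± 0.30 (adjusted p = 0.00342). Its value within each isolation, -1.43 ± 0.42 in SM6 and -1.67 ± 0.42 in Lgr5-GFP ISCs, did not pass alone (adjusted p = 0.0734 and 0.0836). Of the 72-base windows in the last 500 bases of its transcript, 75.1% also occur in Znf41-ps or Zfp992, and the genes C230088H06Rik and Gm26624 overlap it, so the counts of Zfp991 may hold reads of these genes.

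The separation of young and old libraries was also counted with no model. In SM6, 26 members had all old libraries below all young ones, or 12.1% against 9.78% of all tested genes, and 5 had them above, or 2.34% against 7.74%. In Lgr5-GFP ISCs the counts were 15 below and 15 above, or 7.01% each, against 7.95% and 6.61% of all tested genes. In both isolations 5 members were lower in old libraries (Zfp207, Zfp217, Zfp263, Zfp827 and Zfp991), which is 2.34% of members against 1.29% of all tested genes. For 3 members, or 1.40%, old libraries were lower in SM6 and higher in Lgr5-GFP ISCs, against 0.284% of all tested genes. Zfp827 was named after its values were seen, as was Zfp961, the 1 member higher in old libraries of both, or 0.467% against 0.748% of all tested genes.

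Over the whole set of members, the age difference in SM6 ISCs lay below 0 more often than in the table as a whole. The median log2 fold change was -0.14 for the members and -0.01 for all tested genes, and 66.4% of members against 50.7% of all tested genes had a negative value. The lower ISC sum and the higher goblet sum of SM6 old libraries lie between the same groups, as for the KRAB values and the member share in SM6 given further on, and their part was not tested. In Lgr5-GFP ISCs the medians were 0.05 and -0.03, and 54.2% of members had a positive value against 46.3% of all tested genes. The member median of 0.05 rested on single libraries, being 0.11 without Lgr5-GFP young 1 and 0.015 without Lgr5-GFP old 2. The median SE of a member was 0.39 in SM6 and 0.38 in Lgr5-GFP ISCs, so a shift of this size could not be seen in a single member. Without the composition scaling by TMM, the median of all tested genes itself moved to -0.16 in SM6 and 0.16 in Lgr5-GFP ISCs, with members at -0.29 and 0.26. Relative to that shift, the members stayed below the table in SM6 and above it in Lgr5-GFP ISCs.

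**Figure D3:**
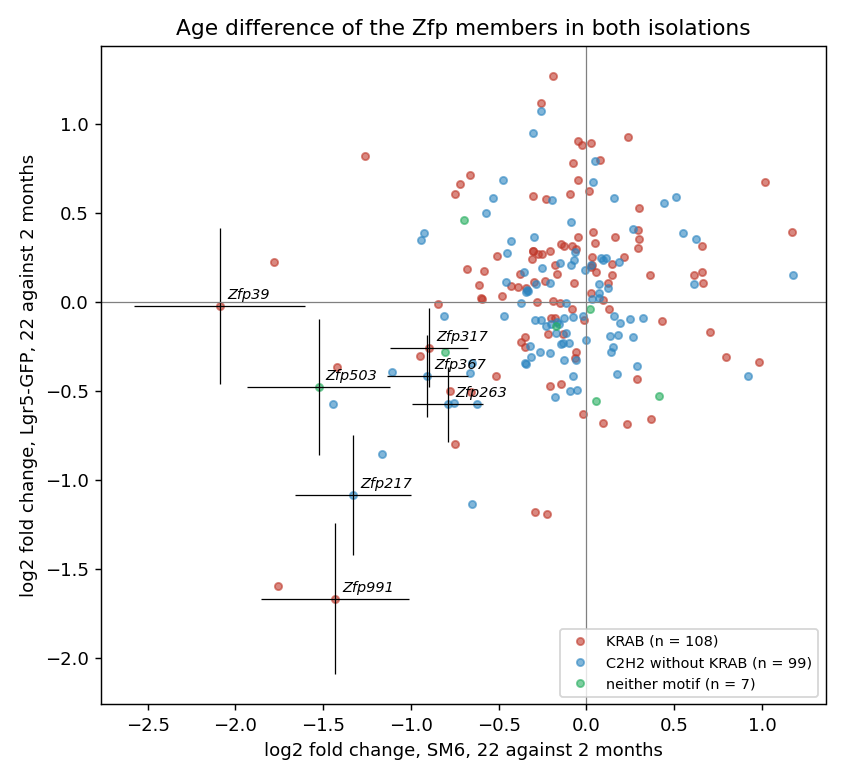
Age difference of the 214 members, as log2 fold change of 22 against 2 months in SM6 (x axis) and Lgr5-GFP ISCs (y axis). Points are genes coloured by protein class, and lines on the 7 named members are ± SE. Zfp217 and Zfp991 lie far from 0 on both axes, whereas Zfp39 lies at -2.09 on the SM6 axis and -0.02 on the other.

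KRAB members and C2H2 members without KRAB were described apart. In SM6 the median log2 fold change with age was -0.15 for KRAB members and -0.13 for C2H2 members without KRAB, with 71 of 108 and 67 of 99 negative. In Lgr5-GFP ISCs it was 0.15 for KRAB members, with 70 of 108 positive, and -0.08 for the others, with 45 of 99 positive. Between the same libraries the mitochondrial share of counts was 4.02%, 5.34% and 6.29% at 2 months and 8.12%, 7.37% and 9.33% at 22 months, and the Paneth marker sums given above were lower at 22 months, both without overlap. The small immune marker sums given above were lower at 22 months as well. The part of this share and these sums in the KRAB values was not tested. Between the isolations at 22 months, KRAB members were higher in Lgr5-GFP than in SM6 ISCs by a median of 0.28, with 80 of 108 positive, and C2H2 members without KRAB had a median of -0.02, with 48 of 99 positive. The libraries of this comparison also stood apart in their markers, since the ISC sum was 12163 to 13689 CPM and the goblet sum 3376 to 6019 CPM in Lgr5-GFP old libraries, beside the SM6 old values given above. The mitochondrial share was 5.77% to 6.85% in SM6 old libraries, and the Paneth sum was higher in these than in Lgr5-GFP old libraries without overlap. Enteroendocrine cell markers, 9 genes in all, summed to 1339 to 3407 CPM in SM6 old and 193 to 335 CPM in Lgr5-GFP old libraries. Their part in the 22-month values was not tested. At 2 months the medians of the classes were 0.00 and -0.06. Over the whole table the medians were 0.00 at 22 months and -0.01 at 2 months. The comparisons share libraries, the members of a class are not independent, and the difference between classes was not tested.

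No single member was called between the isolations at either age by edgeR's quasi-likelihood test, DESeq2 or limma voom, whereas with no filter on low counts Zfp871 was called at 2 months. Of all tested genes 0.0898% were called at 2 months and 0.718% at 22 months. At an unadjusted p under 0.05 there were 13 members at 2 months and 20 at 22 months, or 6.07% and 9.35%, against 7.47% and 9.40% of all tested genes. Of the 20 at 22 months, 19 were higher in Lgr5-GFP ISCs and 1 was lower, whereas 3.84% of all tested genes were higher and 5.56% lower at this p.

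**Figure D4:**
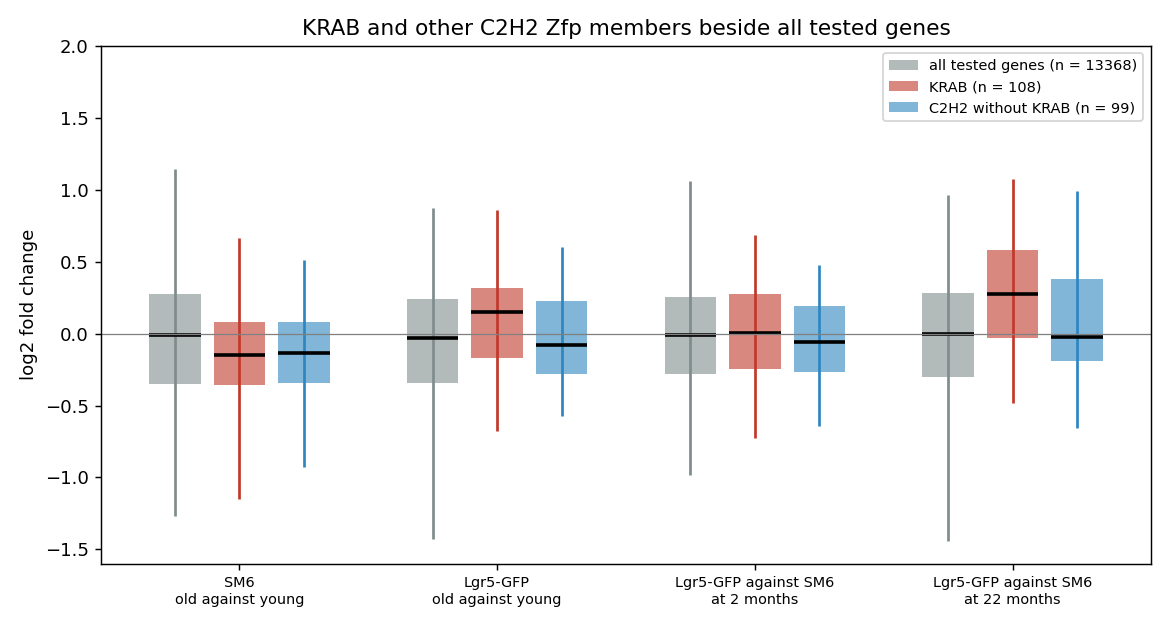
log2 fold changes (y axis) of KRAB members, C2H2 members without KRAB and all tested genes in 4 comparisons (x axis). Black lines are medians, boxes the middle 50% and thin lines the 5th to 95th percentile. The KRAB box is centred at 0.15 for age in Lgr5-GFP ISCs and at 0.28 for Lgr5-GFP against SM6 at 22 months, and at -0.15 for age in SM6.

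Within the chromosomal clusters the members' differences had both signs. In the 14-member cluster on chromosome 17, 10 members had a negative age difference in SM6 (median -0.05) and 8 a positive one in Lgr5-GFP ISCs (median 0.17). The cluster at chr13:67339306-67729173 had a positive SM6 median of 0.20 over 10 members, with 4 of the 10 negative. At chr17:32765496-33394641, 5 of 8 members were negative in SM6 (median -0.18) and 7 of 8 positive in Lgr5-GFP ISCs (median 0.18). The 8 members at chr7:127233061-127615797, of which 4 were KRAB genes, had a median of -0.30 in SM6 ISCs and of -0.02 in the reporter ISCs. Cluster members can share sequence, but 17 of the 214 members shared any 3′ window with another gene, and 2 (Zfp991 and Zfp414) shared more than 50% of theirs.

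The share of all counts that fell to the members differed with age in opposite directions in the isolations. It was 0.526%, 0.584% and 0.581% in SM6 young and 0.503%, 0.458% and 0.402% in SM6 old libraries, and 0.453%, 0.493% and 0.530% in young Lgr5-GFP and 0.566%, 0.579% and 0.541% in Lgr5-GFP old libraries. For SM6 old 3, the library with the lowest share, the 95% Wilson interval was 0.392% to 0.412%, which covers counting error only. Defensin counts took 23.1% of that library and 23.2% of Lgr5-GFP young 1. Over the counts outside defensin genes, the share was 0.589% ± 0.016 (SD, n = 3) in SM6 young and 0.512% ± 0.026 in SM6 old, and 0.571% ± 0.016 in young Lgr5-GFP and 0.578% ± 0.015 in Lgr5-GFP old libraries. On this base SM6 young and old libraries still did not overlap (0.573% to 0.605% against 0.482% to 0.530%), whereas those of Lgr5-GFP did. With 3 libraries against 3, a two-sided exact permutation test cannot go below a p of 0.1, and none is given.

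**Figure D5:**
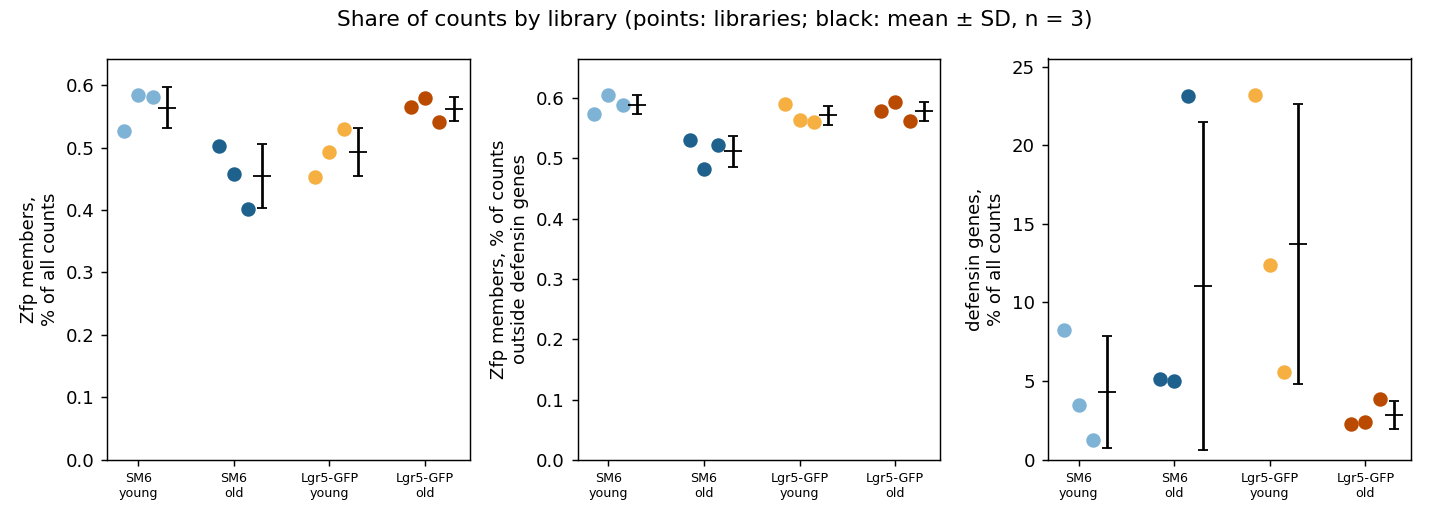
Share of counts by library (y axes in percent, from 0): the 214 members over all counts, the members over counts outside defensin genes, and the defensin genes. Points are libraries, black marks the mean ± SD (n = 3). The SM6 old libraries lie below the SM6 young ones in the first and second panels, and the Lgr5-GFP groups overlap in the second.

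Zfp36 and its relatives Zfp36l1 and Zfp36l2, which act on mRNA, showed no called difference. Zfp36 (tristetraprolin) measured 17.6, 18.3 and 17.3 CPM in SM6 young, 35.8, 22.4 and 12.8 in SM6 old, 39.1, 39.7 and 27.7 in young Lgr5-GFP and 24.0, 24.4 and 25.1 in Lgr5-GFP old libraries. The Lgr5-GFP young libraries were above the SM6 young ones without overlap, by 0.99 ± 0.29 on the log2 scale, with an adjusted p of 0.341. Zfp36l1 measured 21.6 to 60.8 CPM and Zfp36l2 6.39 to 27 CPM over the 12 libraries. Their average age differences were -0.06 ± 0.21 for Zfp36, -0.16 ± 0.19 for Zfp36l1 and -0.12 ± 0.26 for Zfp36l2, with adjusted p of 0.961, 0.821 and 0.916. The signs of all 3 turned when some libraries were left out. Each has an antisense neighbour (Gm44710, Gm26669 and AC132455.1).

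Of 20 genes on a list of mRNA decay partners of these proteins, 2 fell with age in SM6 and on average and none rose, where 1.77% and 2.06% of all tested genes were called lower. They were Khsrp, another protein that binds AU-rich elements, at -1.71 ± 0.28 in SM6 (adjusted p = 0.00128), and Pan3, a deadenylase subunit, at -1.74 ± 0.27 (adjusted p = 0.000824). This list had a median of -0.18 in SM6, with 16 of 20 negative. In Lgr5-GFP ISCs its median was -0.27, with 15 of 20 negative and none called. Of 20 KRAB silencing partners, among them Trim28 and Setdb1, 1 fell with age in SM6 and none rose, beside the same 1.77% of all tested genes. This was Cbx3, the heterochromatin protein HP1 gamma, at -0.91 ± 0.22 in SM6 (adjusted p = 0.0242) and -0.63 ± 0.15 on average (adjusted p = 0.0241). The list of KRAB silencing partners had a median of -0.27 in SM6, with 17 of 20 negative beside 50.7% of all tested genes, and of -0.07 in Lgr5-GFP ISCs, with 12 of 20 negative beside 53.6% and none called. For both lists, the ISC and goblet sums given earlier differed between the same SM6 groups, and their part was not tested.

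C2H2 zinc finger genes under other names were compared as a neighbouring family. Of 119 on the list, 95 were tested, and 5 fell with age in SM6 (5.26%, against 1.77% of all tested genes) and none rose. These were Prdm16 at -1.41 ± 0.21, Zscan26 at -1.13 ± 0.19, Zbtb44 at -1.11 ± 0.24, Klf9 at -1.15 ± 0.29 and Klf13 at -0.75 ± 0.17. Zscan26, a SCAN-domain zinc finger gene, was also the 1 gene of the list called in Lgr5-GFP ISCs, at -0.90 ± 0.19 (adjusted p = 0.0326). Zbtb44 had an age effect that differed between the isolations, by 1.51 ± 0.33 (adjusted p = 0.0298). On average Prdm16, Zscan26, Klf9, Klf13 and Egr1 were called lower (5.26% of the list, against 2.06% of all tested genes). Their values were -0.90 ± 0.15, -1.02 ± 0.14, -0.80 ± 0.20, -0.47 ± 0.12 and -1.09 ± 0.30 in that order. Egr1 lay at the edge of the threshold (adjusted p = 0.0492) and was called in neither isolation alone. Its old SM6 libraries were all below the young ones. Those of Lgr5-GFP overlapped, at 20.8, 52.9 and 24.4 CPM in young and 10.7, 24.4 and 23.1 CPM in old libraries. The median of this list in SM6 was -0.22, with 63 of 95 negative, beside -0.14 for the Zfp members, and the difference between the families was not tested. The ISC and goblet sums differed between these SM6 groups too, and their part was not tested.

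The sequences before the transcription start were read for the 4 members called lower both in SM6 and on average, to show whether members that fell together carry the same short elements. Each run is the 150 bases upstream of the first RefSeq start listed, in GRCm38.p6 and 5′ to 3′ on the gene's strand. RefSeq lists 2 starts each for Zfp217, Zfp317 and Zfp367, and the window shown for Zfp217 lies inside the gene's GENCODE span, so other starts of these genes are not shown. Capitals mark the CCAAT box (CCAAT), the GC box (GGGCGG) and the core bound by ETS factors (CCGGAA), on either strand. The windows are chr2:170142676-170142825 on the minus strand for Zfp217, chr16:3743949-3744098 on the plus strand for Zfp263, chr9:19621941-19622090 on the plus strand for Zfp317 and chr13:64153200-64153349 on the minus strand for Zfp367.
Zfp217: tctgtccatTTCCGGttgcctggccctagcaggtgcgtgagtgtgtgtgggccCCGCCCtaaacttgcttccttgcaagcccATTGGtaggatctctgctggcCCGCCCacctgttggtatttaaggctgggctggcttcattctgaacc
Zfp263: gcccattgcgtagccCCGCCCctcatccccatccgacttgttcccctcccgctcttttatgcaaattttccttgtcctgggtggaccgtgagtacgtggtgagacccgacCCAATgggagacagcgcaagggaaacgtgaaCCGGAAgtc
Zfp317: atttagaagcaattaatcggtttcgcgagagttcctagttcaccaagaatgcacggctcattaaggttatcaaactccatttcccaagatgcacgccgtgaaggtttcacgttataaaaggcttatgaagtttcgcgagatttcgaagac
Zfp367: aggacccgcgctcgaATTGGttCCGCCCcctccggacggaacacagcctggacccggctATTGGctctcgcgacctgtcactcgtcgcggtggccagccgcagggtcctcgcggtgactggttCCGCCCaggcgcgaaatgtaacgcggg

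These windows did not look alike. Those of Zfp217 and Zfp263 held all 3 elements, that of Zfp367 held CCAAT and GC boxes but no ETS core, and that of Zfp317 held none of the 3. Their GC content was 58.0%, 58.7%, 68.7% and 42.0% for Zfp217, Zfp263, Zfp367 and Zfp317.

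Windows were listed for 178 of the 214 members, and the elements were divided by class. A CCAAT box was found in 50.5% of 93 KRAB windows, in 28.7% of 80 windows of C2H2 members without KRAB and in 29.4% of 7851 windows of all genes that met the same count rule. The ETS core was found in 38.7%, 17.5% and 20.1% of these windows, and the GC box in 28.0%, 52.5% and 55.1%. The mean GC content was 54.5% for KRAB members, 63.2% for C2H2 members without KRAB and 62.9% for the genes that met the count rule. Over all 27025 genes listed, 25.3% of windows held a CCAAT box, 29.0% a GC box and 9.48% an ETS core. These matches are letters in a window and not sites shown to be bound, and KRAB genes that arose by duplication share sequence.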

How the data were processed

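Poly(A) RNA of sorted ISCs was sequenced from the 3′ end in 12 libraries. The authors aligned reads to GRCm38 with STAR 2.4.2a and deposited raw counts per gene from featureCounts over GENCODE vM15 exons. Whether molecular identifiers were collapsed, and the strand setting, are not given in the sources used here. Here, symbols were taken from GENCODE vM21 (54165 of 54232 genes matched). The counts of genes with more than 5 reads and at least 1 CPM in a library (13368) were scaled by TMM and tested in R 4.3.3 with edgeR 4.0.16 (quasi-likelihood, 4 group means, two-sided), with Benjamini-Hochberg adjustment over all tested genes, also wherever an adjusted p is printed without the tool. The fits were tested on simulated data, and DESeq2 1.42.0 and limma 3.58.1 voom were alternatives. Values after ± are SE for log2 fold changes. CPM are TMM-scaled.

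KRAB domains (at most 2 of 8 fixed residues differing), SCAN domains and C2H2 motifs were searched in translated GENCODE coding sequences, since no table of RefSeq proteins was used here. Promoter windows came from RefSeq (GRCm38.p6). Members named were those called with age, the 5 with the highest CPM, Zfp36 and its relatives, and 3 on each side of the count threshold. Genes of other lists were named where called with age. Others were named after their values were seen, where few. The members and lists were chosen with earlier results of these data known. Same-numbered replicates were not treated as pairs, since their deviations from the group means had r over 0.1 in 0 of 18 pairs. This check cannot show whether such libraries were collected or processed together.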

Additional observations from a re-analysis of the deposited data

Results flagged for a closer look

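The share of all counts taken by the members was lower in old than in young SM6 libraries, by a mean difference of -0.109 percentage points, and higher in old than in young Lgr5-GFP libraries, by 0.0694 percentage points. It was noted because every old library lay on 1 side of the young ones in each isolation and the sides were opposite. The difference between the isolations was not tested. Over counts outside defensin genes the Lgr5-GFP libraries overlapped, at 0.571% in young and 0.578% in old, and the TMM-scaled sums were 5209 and 5197 CPM, whereas SM6 stayed lower in old libraries, at 0.589% and 0.512%. The defensin share was highest in SM6 old 3 and Lgr5-GFP young 1, the libraries with the lowest member share of their isolation, and its part was not tested.

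For 3 members, all old libraries were below all young ones in SM6 and above them in Lgr5-GFP ISCs, which is 1.40% of the members against 0.284% of all tested genes. They were named after their values were seen. Zfp871, a KRAB gene, measured 48.5, 84.8 and 48.4 CPM in SM6 young, 43.6, 31.2 and 40.7 in SM6 old, 29.9, 23.6 and 35.6 in Lgr5-GFP young and 45.3, 65.1 and 38.6 in Lgr5-GFP old libraries. Its age effect differed between the isolations by 1.38 ± 0.37 on the log2 scale, with an edgeR adjusted p of 0.105. Zfp704 measured 44.3, 50.4 and 43.4 CPM in SM6 young, 42.1, 25.1 and 32.8 in SM6 old, 36.5, 31.2 and 31.9 in Lgr5-GFP young and 52.0, 65.1 and 44.4 in Lgr5-GFP old libraries. The difference for Zfp704 was 1.16 ± 0.32 (adjusted p = 0.132), and for Zfp410 it was 0.72 ± 0.36 (adjusted p = 0.543). Zfp410 lay between 16.0 and 27.6 CPM in all libraries. None of the 3 passed the test of the difference.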

How the results depend on the processing

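In SM6 the count of 6 members called became 9 with library totals alone, 8 with no filter on low counts and 8 under the likelihood ratio test, the 6 among them each time, and 3 with the defensin share as a term and 1 without SM6 old replicate 3 and Lgr5-GFP young replicate 1 together, and ranged from 0 to 6 when 1 library was left out. On average the count of 5 became 3 both with library totals alone and without those 2 libraries, and ranged from 3 to 7. In Lgr5-GFP ISCs it was 1 (Zfp991) with no filter on low counts and under the likelihood ratio test, and 0 to 1 with 1 library left out. For the difference between isolations it was 2 with library totals alone (Zfp704 and Zfp871), and 1 (Zfp871) with no filter and under the likelihood ratio test. Between isolations at 2 months it was 1 (Zfp871) with no filter. With the replicate block, which the check of the pairing does not call for, 5 members were called in SM6 and 6 on average. The SM6 median became -0.29 with library totals alone and -0.21 with the defensin share as a term, and the Lgr5-GFP median 0.26 with library totals alone and 0.12 without those 2 libraries. With 1 library left out the medians ranged from -0.16 to -0.11 in SM6, 0.01 to 0.11 in Lgr5-GFP ISCs and -0.07 to -0.03 on average. The average age difference turned positive for Zfp36 without SM6 old replicate 3 (0.094) and without those 2 libraries (0.14), for Zfp36l1 without those 2 libraries (0.10) and for Zfp36l2 without Lgr5-GFP old replicate 1 (0.0072). With 1 library left out it ranged from -0.25 to 0.094 for Zfp36 and from -0.33 to 0.0072 for Zfp36l2. These samples are few, and with a median of 14 to 46 counts per library a change in most members would have to be large to be called. Where no value above shows a cause, the cause was not tested.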
